A study of Mus musculus with 12 samples.

Results

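A set of 10 genes of lipid release, fat cell formation and fatty acid handling was followed across primary mouse skin fibroblasts of WT and Nox4 KO mice, with and without TGF-β2. The genes were taken by name: the secreted lipases Lpl and Lipg, the lipase inhibitor Angptl4, the transcription factors Pparg, Cebpa, Cebpb, Cebpd and Zfp423, and the fatty acid proteins Fabp4 and Cd36. Of these, 9 were found among the 21556 genes of the count table. Cebpd was not analysed here. The fibroblasts came from abdominal skin that had been separated from its fat, and sequencing gave 12 RNA libraries, 3 for each of 4 groups. The labels give strain C57BL/6 for WT cells and B6.129-Nox4tm1Kkr/J, in which Nox4 is disrupted from the germ line, for Nox4 KO cells. The study's methods describe matings between heterozygotes, whose WT and Nox4 KO offspring then founded the separate WT and Nox4 KO litters. Cells of both genotypes were serum-starved for 24 h and then either left unstimulated (control) or stimulated for 24 h with TGF-β2, a ligand that turns fibroblasts into contractile myofibroblasts, at 10 ng/ml. The question put to these cells was what the NADPH oxidase NOX4, whose gene TGF-β induces, contributes to that response. The series gives its replicates as biological, but the sources used here do not say whether they came from separate animals, so the p-values measure the spread between these libraries.

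Lipoprotein lipase (Lpl) and endothelial lipase (Lipg) are secreted enzymes that release fatty acids from circulating lipoproteins, and ANGPTL4 is a secreted protein that inactivates lipoprotein lipase. PPARγ and C/EBPα are the core transcription factors of fat cells, and C/EBPβ acts before them when a precursor cell turns into a fat cell. FABP4 carries fatty acids in the cytosol of fat cells and macrophages, and CD36 takes them up at the cell surface. Dermal fibroblasts include precursors of fat cells, and TGF-β is a known inhibitor of adipogenesis.

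The total count per library was 35118344 to 43796260. Levels are given as RPKM, reads per kilobase of merged exons scaled to the total count of the library, so that genes can be compared with each other. Nox4 was counted in every library. Its mean was 1.74 RPKM in WT control, 11.9 RPKM in WT with TGF-β2, 0.896 RPKM in Nox4 KO control and 5.26 RPKM in Nox4 KO with TGF-β2, without information on the exons that these reads matched. The 12 fibroblast markers were detected in every library and together reached 6140 to 10300 RPKM. The 15 adipocyte markers together reached 2.12 to 5.52 RPKM, with no read on Retn in any library and at most 13 reads on Adipoq. The 13 macrophage markers together reached 16.9 to 150 RPKM, most of it from Lyz2. The endothelial markers reached 3.32 to 6.39 RPKM and the keratinocyte markers 1.21 to 5.96 RPKM. The skeletal muscle markers reached 44.1 to 617 RPKM, nearly all of it from the actin gene Acta1.

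Lpl was the more abundant of the 2 lipase genes and was lower after TGF-β2 in both genotypes. It lies on chromosome 8 at 68880491 to 68907448 of GRCm38. In WT control, Lpl was at 20.4, 13.9 and 18.8 RPKM, and in WT with TGF-β2 at 8.13, 4.90 and 4.71 RPKM. In Nox4 KO control it was at 9.17, 9.87 and 6.40 RPKM, and in Nox4 KO with TGF-β2 at 2.25, 4.49 and 2.77 RPKM. Every stimulated library was thus below every control library of its genotype. A gene is called here when its adjusted p-value in edgeR's quasi-likelihood test is under 0.05 and its change is at least 2-fold. Lpl fell by 1.54 on the log2 scale in WT (SE 0.26, adjusted p = 0.00849), a 2.90-fold change, and by 1.34 in Nox4 KO (SE 0.30, adjusted p = 0.0224), a 2.52-fold change. The WT call held whichever library was left out. The Nox4 KO call was lost without control replicate 1, control replicate 2 or stimulated replicate 1, with adjusted p-values of 0.0685, 0.0714 and 0.0584 and log2 fold changes of -1.27, -1.20 and -1.14. In order of mean level, WT control (17.7 RPKM) stood clear of Nox4 KO control (8.48 RPKM), which overlapped WT with TGF-β2 (5.91 RPKM), and Nox4 KO with TGF-β2 (3.17 RPKM) was below all of these.

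Lipg, on chromosome 18, was low in all groups and was not called after TGF-β2 in either genotype. It was at 1.03, 1.90 and 0.995 RPKM in WT control and at 1.39, 1.48 and 1.35 RPKM in WT with TGF-β2. The levels were 2.39, 1.60 and 3.20 RPKM in Nox4 KO control and 3.63, 2.18 and 3.26 RPKM in Nox4 KO with TGF-β2. Control and stimulated libraries overlapped in both genotypes, with log2 fold changes of 0.14 (SE 0.28, adjusted p = 0.747) in WT and 0.43 (SE 0.29, adjusted p = 0.297) in Nox4 KO. In WT this value was -0.01 without control replicate 1 and -0.02 without control replicate 3. With the replicate block, Lipg in Nox4 KO was at 0.44 (SE 0.13, adjusted p = 0.0315), under the 2-fold limit. Stimulated Nox4 KO libraries stood at 152%, 136% and 102% of their same-numbered controls. Lpl exceeded Lipg in every control library and in every WT library, whereas Lipg exceeded Lpl in Nox4 KO with TGF-β2 replicates 1 and 3, where its level was 1.61 and 1.18 times that of Lpl. In replicate 2 this ratio was 0.486.

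Angptl4 was the member that rose after TGF-β2. The gene lies on chromosome 17 at 33773750 to 33781830. Angptl4 was at 4.76, 4.09 and 3.24 RPKM in WT control and at 25.2, 19.1 and 17.2 RPKM in WT with TGF-β2. It was at 5.02, 6.03 and 2.05 RPKM in Nox4 KO control and at 25.2, 24.7 and 5.74 RPKM in Nox4 KO with TGF-β2. The WT groups stood far apart, while the lowest stimulated Nox4 KO library, replicate 3, fell within the range of the Nox4 KO controls. Angptl4 rose by 2.38 on the log2 scale in WT (SE 0.22, adjusted p = 0.00113), a 5.22-fold change. In Nox4 KO its log2 fold change was 2.17 (SE 0.66, adjusted p = 0.0519), which missed the threshold. The control library of Nox4 KO replicate 3 was also the lowest of its group, and same-numbered Nox4 KO libraries deviated together across all genes. With the replicate number as a block, Angptl4 was called in Nox4 KO at 2.07 (SE 0.15, adjusted p = 0.000487), and each stimulated library held 502%, 409% and 279% of the level of its same-numbered control. Among the fits with a library left out, only that without stimulated replicate 3 gave a call, at 2.59 (SE 0.44, adjusted p = 0.0128). The others gave 1.83 to 2.49, with adjusted p-values of 0.0963 to 0.154.

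The ratio of the inhibitor to its target enzyme lay below 1 in every control library and above 1 in every stimulated library. The Angptl4 level divided by the Lpl level was 0.233, 0.294 and 0.172 in WT control and 0.547, 0.612 and 0.321 in Nox4 KO control. After TGF-β2 it was 3.10, 3.89 and 3.65 in WT and 11.2, 5.50 and 2.07 in Nox4 KO. Lpl was the more abundant mRNA in all 6 control libraries and Angptl4 in all 6 stimulated libraries. Both quantities are mRNA levels, and no protein or enzyme activity was measured in these libraries.

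**Figure D1:**
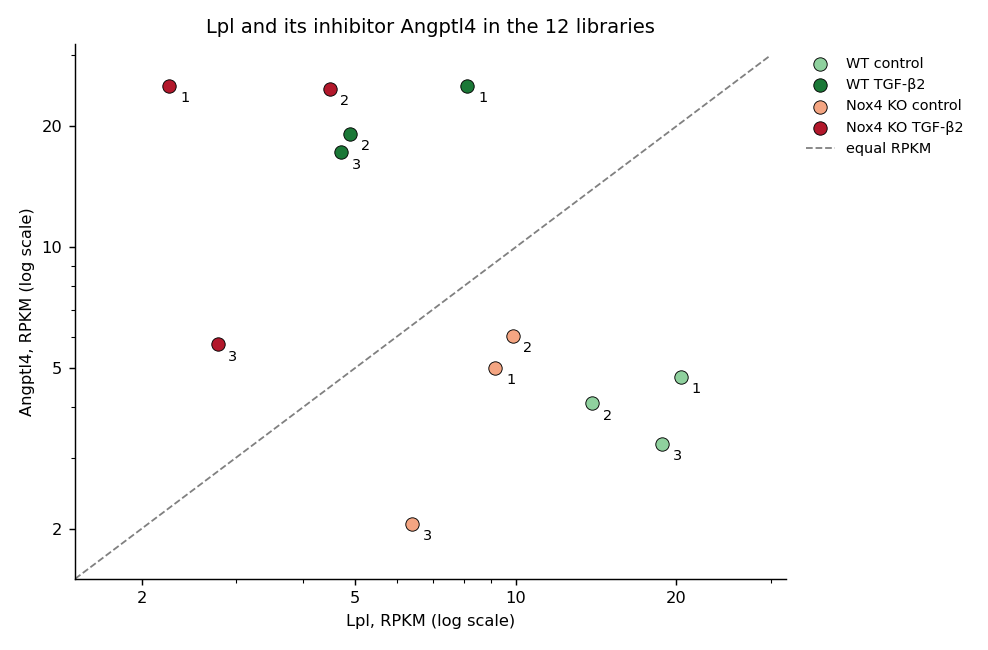
Lpl (x axis) against Angptl4 (y axis), both in RPKM on log axes, with 1 point per library, coloured by group and numbered by replicate. All 6 control libraries lie below the dashed line of equal RPKM and all 6 stimulated libraries above it, with Nox4 KO TGF-β2 replicate 3 nearest the line among the stimulated at a ratio of 2.07.

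Among the transcription factors, Cebpa fell in both genotypes. It is the only gene of the set on the chromosome of Nox4, at 35119293 to 35121928 of chromosome 7 and 52.3 Mb from Nox4. Cebpa was at 3.86, 2.95 and 6.13 RPKM in WT control and at 0.996, 0.935 and 1.85 RPKM in WT with TGF-β2. The Nox4 KO controls were at 2.63, 2.87 and 2.13 RPKM and the stimulated Nox4 KO libraries at 0.760, 0.996 and 0.684 RPKM. No stimulated library reached a control library of its genotype. The log2 fold change was -1.73 in WT (SE 0.36, adjusted p = 0.0171) and -1.56 in Nox4 KO (SE 0.21, adjusted p = 0.00588). In WT the call was lost without control replicate 3, the highest library (-1.39, adjusted p = 0.056), and without stimulated replicate 1 (-1.60, adjusted p = 0.0687), while in Nox4 KO it held whichever library was left out. Same-numbered stimulated and control libraries of Nox4 KO stood at 28.9%, 34.7% and 32.1%.

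Cebpb, on chromosome 2 at 167688915 to 167690418, was the most abundant of the transcription factors and passed the threshold in Nox4 KO but not in WT. It was at 10.2, 9.80 and 9.19 RPKM in WT control and at 7.01, 8.43 and 5.97 RPKM in WT with TGF-β2. The levels were 11.3, 13.1 and 7.74 RPKM in Nox4 KO control and 4.63, 4.45 and 3.25 RPKM in Nox4 KO with TGF-β2. Stimulated libraries were below control libraries in both genotypes, by a narrow margin in WT and a wide one in Nox4 KO. The log2 fold change was -0.41 (SE 0.15, adjusted p = 0.0956) in WT and -1.30 (SE 0.25, adjusted p = 0.0141) in Nox4 KO, where the call was lost without stimulated replicate 2 (-1.37, adjusted p = 0.0544). An exon of the single-exon gene Cebpb shares 312 bases with a non-coding transcript of Tmem189 on the opposite strand. The strand setting of the counting is not given in the sources used here. Tmem189 itself was at 21.5 to 32 RPKM, with log2 fold changes after TGF-β2 of 0.23 in WT (adjusted p = 0.289) and 0.15 in Nox4 KO (adjusted p = 0.188).

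Pparg, on chromosome 6 at 115360951 to 115490399, was lower on average after TGF-β2 but missed the threshold in both genotypes. Pparg was at 2.28, 2.58 and 1.10 RPKM in WT control and at 1.16, 1.22 and 0.682 RPKM in WT with TGF-β2. It was at 1.58, 2.17 and 0.935 RPKM in Nox4 KO control and at 0.628, 0.812 and 0.472 RPKM in Nox4 KO with TGF-β2. Replicate 3 was the lowest library of each of the 4 groups, and only in Nox4 KO did the groups stand apart. The log2 fold change was -0.93 (SE 0.38, adjusted p = 0.127) in WT and -1.21 (SE 0.37, adjusted p = 0.0533) in Nox4 KO. With the replicate block, Pparg was called in Nox4 KO at -1.19 (SE 0.15, adjusted p = 0.00221). In WT the block gave -0.89 (SE 0.17, adjusted p = 0.0132), under the 2-fold limit. Leaving out each library gave -1.21 to -0.67 in WT and -1.48 to -0.88 in Nox4 KO. In both genotypes Pparg was then called only without control replicate 3 (adjusted p = 0.0438 in WT and 0.0256 in Nox4 KO). Zfp423, a zinc finger factor that commits precursors to the fat lineage, was at 0.223 to 0.422 RPKM in all 12 libraries, on 41 to 89 reads, and was too low to enter the tests. Its control and stimulated libraries overlapped in both genotypes (exact permutation test, two-sided, p = 0.80 in WT and p = 1.0 in Nox4 KO, with 0.1 as the smallest p-value that 3 against 3 can give).

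Promoter sequences were matched for 5 of the 9 genes in the RefSeq table of GRCm38.p6. The 250 bases upstream of the start of Cebpa and Cebpb, and of 1 of 3 starts of Pparg, are shown because these 3 factors form the core of the adipogenic set. Each was searched on both strands for TTGCG, part of the site that C/EBP factors bind, for CAGAC, a SMAD-binding element, and for the E-box CACGTG, and matches are in capitals. All 3 windows are on the + strand, with Cebpa at chr7:35119043-35119292, Cebpb at chr2:167688665-167688914 and Pparg at chr6:115421816-115422065.
Cebpa: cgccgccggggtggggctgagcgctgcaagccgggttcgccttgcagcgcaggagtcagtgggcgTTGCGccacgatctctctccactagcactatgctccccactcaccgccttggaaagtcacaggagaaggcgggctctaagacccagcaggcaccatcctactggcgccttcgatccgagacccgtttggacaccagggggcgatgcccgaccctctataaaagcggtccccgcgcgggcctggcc
Cebpb: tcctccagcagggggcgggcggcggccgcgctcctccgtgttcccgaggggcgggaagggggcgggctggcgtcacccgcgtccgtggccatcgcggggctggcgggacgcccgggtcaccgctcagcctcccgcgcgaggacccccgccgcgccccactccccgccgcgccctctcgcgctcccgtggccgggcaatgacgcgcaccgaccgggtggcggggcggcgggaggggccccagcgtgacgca
Pparg: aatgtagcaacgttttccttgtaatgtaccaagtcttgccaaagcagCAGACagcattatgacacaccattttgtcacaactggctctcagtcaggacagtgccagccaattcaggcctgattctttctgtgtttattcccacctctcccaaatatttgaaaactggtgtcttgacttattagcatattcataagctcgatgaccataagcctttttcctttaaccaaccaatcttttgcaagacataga
The Cebpa window held 1 match to TTGCG and the Cebpb window none. Of the 3 Pparg windows, the one printed was chosen because it held a match, 1 to CAGAC, while those at chr6:115360894-115361143 and chr6:115362099-115362348 held none of the 3 motifs. Among 32851 promoter windows of the same length, 14.5% held TTGCG, 42.2% held CAGAC and 6.02% held CACGTG. A match is a description of the letters and not of a bound site.

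Fabp4, on chromosome 3 at 10204088 to 10208576, marks fat cells and is a target of PPARγ, and it had the lowest group mean after TGF-β2 of the tested genes in each genotype, though not the lowest value in every library. Fabp4 was at 5.56, 3.13 and 2.60 RPKM in WT control and at 0.931, 1.18 and 0.480 RPKM in WT with TGF-β2. It was at 2.39, 3.93 and 0.614 RPKM in Nox4 KO control and at 0.156, 0.561 and 0.635 RPKM in Nox4 KO with TGF-β2. The WT groups did not overlap, and in Nox4 KO control replicate 3 was as low as the stimulated libraries, on 20 reads. Fabp4 fell by 2.08 on the log2 scale in WT (SE 0.43, adjusted p = 0.0163), a 4.24-fold change, and this call was lost without stimulated replicate 1 (-2.18, adjusted p = 0.0553). In Nox4 KO the log2 fold change was -2.28 (SE 0.78, adjusted p = 0.0712). With the replicate block Fabp4 was called at -2.19 (SE 0.63, adjusted p = 0.0332). Same-numbered stimulated libraries stood at 6.53%, 14.3% and 103% of the control. With each library left out the change was between -2.73 and -1.65. It was then called only without control replicate 3 (-2.73, SE 0.55, adjusted p = 0.0261). The summed level of the 15 adipocyte markers moved the same way, from 4.52 to 5.52 RPKM in WT control to 2.86 to 3.71 RPKM in WT with TGF-β2, and from 4.02 to 4.74 RPKM to 2.12 to 3.03 RPKM in Nox4 KO. Most of this sum came from Dgat2, Lipe and Adrb3, whereas Adipoq, Plin1, Cidec and Lep were at 0 to 0.233 RPKM and Retn at 0 in every library. Of the 15 markers 2 were high enough to be tested, and the part of fat cells in the Fabp4 result was not tested. In bulk RNA, fewer cells of a type and less RNA per cell cannot be told apart.

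Cd36, on chromosome 5 at 17781690 to 17888801, was barely counted in most libraries, with 8 to 196 reads, and was too low to enter the tests. Cd36 was at 0.238, 0.175 and 1.35 RPKM in WT control, at 0.130, 0.0591 and 0.651 RPKM in WT with TGF-β2, at 0.451, 0.107 and 0.161 RPKM in Nox4 KO control and at 0.292, 0.0827 and 0.0859 RPKM in Nox4 KO with TGF-β2. Its highest values were thus in WT replicate 3 and in Nox4 KO replicate 1, with and without TGF-β2. The summed macrophage markers were highest in the same libraries, at 150, 107, 116 and 85.3 RPKM against 16.9 to 55 RPKM in the other 8. The Cd36 levels of control and stimulated libraries overlapped in both genotypes (exact permutation test, two-sided, p = 0.50 in each). Within same-numbered Nox4 KO libraries, Cd36 after TGF-β2 stood at 64.7%, 77.4% and 53.4% of the control, and the macrophage sum went from 116 to 85.3, from 41 to 30.6 and from 24.2 to 16.9 RPKM. Same-numbered WT libraries were also lower after TGF-β2 in both measures. Over all genes, their deviations from the group means correlated at 0.062, 0.415 and 0.525, so that pairing was weak for replicate 1. Of the 13 markers, 9 entered the tests in each genotype. None was called by edgeR's quasi-likelihood test, with 0 at an unadjusted p-value under 0.05, and all 9 log2 fold changes were negative in both genotypes. With the replicate block in Nox4 KO, 4 of the 9 had an adjusted p-value under 0.05, all lower and by less than 2-fold, among them Lyz2 at -0.40 (adjusted p = 0.00467). In WT the block gave 3 of the 9 under 0.05, also lower by less than 2-fold, among them Lyz2 at -0.36 (adjusted p = 0.0406). CD36 is also a surface protein of macrophages, and these cells express Fabp4 and Lpl too. The part of macrophages in the levels of these 3 genes and in their changes after TGF-β2 was not tested. In WT control, replicates 1, 2 and 3 had macrophage sums of 55, 30.3 and 150 RPKM, beside Fabp4 at 5.56, 3.13 and 2.60 RPKM and Lpl at 20.4, 13.9 and 18.8 RPKM. The Nox4 KO controls had sums of 116, 41 and 24.2 RPKM, beside Fabp4 at 2.39, 3.93 and 0.614 RPKM and Lpl at 9.17, 9.87 and 6.40 RPKM.

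**Figure D2:**
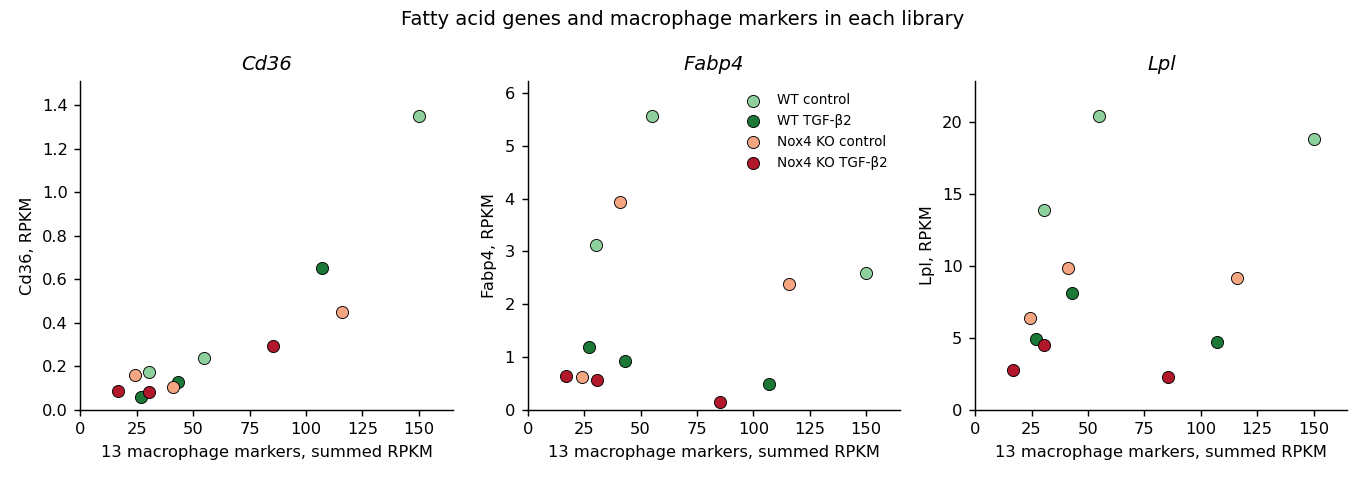
Summed RPKM of 13 macrophage markers (x axis) against the RPKM of Cd36, Fabp4 and Lpl (y axes), 1 point per library, coloured by group. The 4 libraries with marker sums of 85.3 RPKM and above hold the 4 highest Cd36 levels, from 0.292 to 1.35 RPKM, while the highest Fabp4 and Lpl points lie at a marker sum of 55 RPKM.

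Counted together, 7 of the 9 genes entered the tests of TGF-β2 in each genotype. In WT, 4 were called, 1 higher (Angptl4) and 3 lower (Lpl, Cebpa and Fabp4), where 829 of the 10743 genes tested were called (7.72%), 2.62% higher and 5.09% lower. The stimulated libraries were all above the controls for Angptl4, as for 20.3% of the genes tested, and all below for Lpl, Cebpa, Fabp4 and Cebpb, as for 24.9%. In Nox4 KO, 3 were called lower (Lpl, Cebpa and Cebpb) and none higher, where 735 of 10809 genes were called (6.80%), 4.58% lower and 2.22% higher. The stimulated libraries were all below the controls for these 3 and for Pparg, as for 31.5% of the genes tested. With the replicate block in Nox4 KO the count was 6, as Angptl4, Pparg and Fabp4 were added, and 8.36% of all genes were then called. The median log2 fold change of the 7 genes was -0.93 in WT and -1.30 in Nox4 KO, against 0 and -0.01 over all genes tested. Fabp4 in WT, and Fabp4, Pparg and Cebpa in Nox4 KO, passed the limit of 1 RPKM through their control group alone, so these counts and medians are a description.

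**Figure D3:**
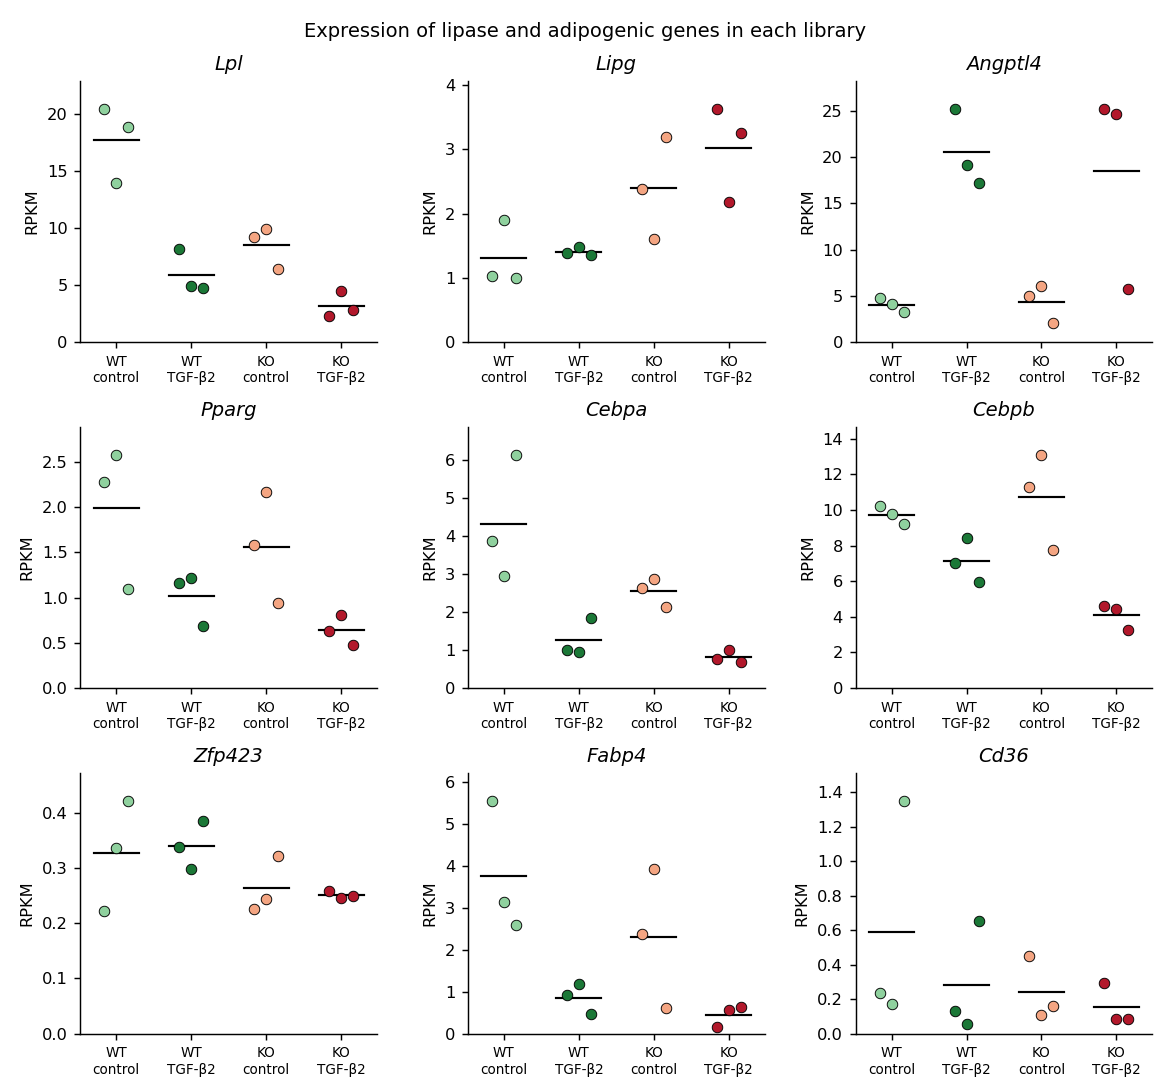
RPKM (y axis) of the 9 genes in each of the 12 libraries, by group on the x axis, with 1 point per library and a line at the group mean. Lpl, Cebpa and Angptl4 show the control and stimulated WT libraries apart, and Nox4 KO TGF-β2 replicate 3 stands at 5.74 RPKM for Angptl4, below the other 2 at 24.7 and 25.2 RPKM.

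**Figure D4:**
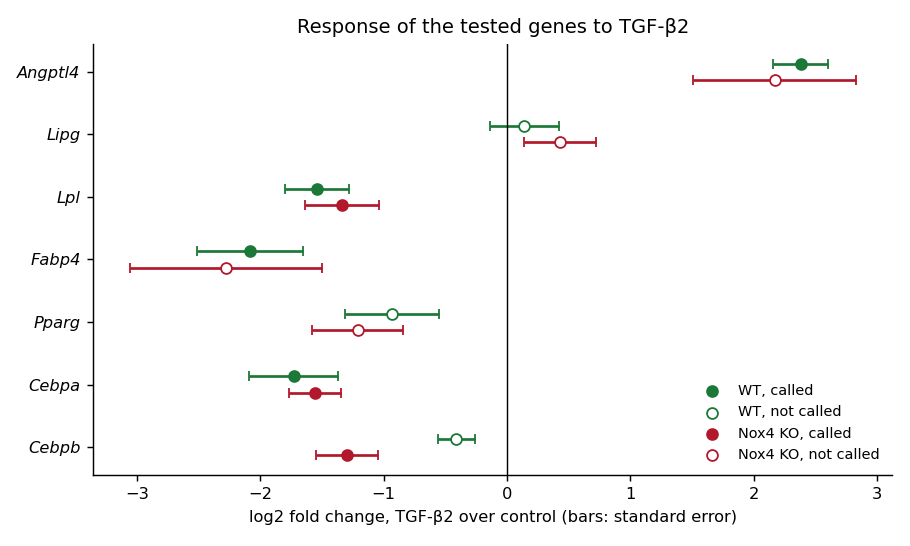
Log2 fold change of TGF-β2 over control (x axis) for the 7 tested genes (y axis), in WT (green) and Nox4 KO (red), with bars for 1 standard error and filled points for called genes. Angptl4 lies at 2.38 and 2.17 on the right, Lipg at 0.14 in WT and 0.43 in Nox4 KO, and the other 5 genes on the left in both genotypes.

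Whether the response differed between genotypes was tested as the interaction of genotype and stimulation over all 12 libraries. Of the 7 genes tested, 0 passed edgeR's quasi-likelihood test, as did 0% of all 10890 genes. An unadjusted p-value under 0.05 was reached by 292 genes (2.68%), 1 of them in the set, and DESeq2 called 6 genes and none of the set. The lowest p-value of the set was that of Cebpb, whose response in Nox4 KO was lower than in WT by a log2 difference of -0.87 (SE 0.29, unadjusted p = 0.0133, adjusted p = 0.854), and this difference was -1.09 to -0.69 with each library left out. The difference was 0.22 for Lpl (SE 0.43), -0.21 for Angptl4 (SE 0.72), 0.18 for Cebpa (SE 0.45) and -0.18 for Fabp4 (SE 0.91). So the calls that one genotype gave and the other did not, for Angptl4, Fabp4 and Cebpb, were not shown to differ between genotypes.

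Without TGF-β2, all 3 Nox4 KO libraries had less Lpl than any WT library, though edgeR's quasi-likelihood test called no gene. The Nox4 KO mean of Lpl was 0.478 times that of WT, with 6.40 to 9.87 RPKM against 13.9 to 20.4 RPKM. The log2 difference was -1.10 (SE 0.21, unadjusted p = 0.00179, adjusted p = 0.828). Of 10767 genes, this test called 0% and gave 597 (5.54%) an unadjusted p-value under 0.05, while DESeq2 called 6 genes and edgeR's exact test 7. Lpl was among both of these (adjusted p = 0.00205 and 0.00312). Over all settings its difference was between -1.24 and -0.92, and its adjusted p-value between 0.00205 and 1. Cebpa was also lower in every Nox4 KO control library, by a log2 difference of -0.79 (SE 0.27, unadjusted p = 0.0252, adjusted p = 0.828), while 2.74% of all genes tested were lower in every Nox4 KO control library. The other 5 tested genes overlapped between genotypes, with differences of 0.82 for Lipg (SE 0.35), -0.73 for Fabp4 (SE 0.64), -0.39 for Pparg (SE 0.43), 0.10 for Cebpb (SE 0.21) and 0.08 for Angptl4 (SE 0.40), the last of which was -0.03 with the replicate block.

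After TGF-β2, Lipg stood out in the opposite direction. All 3 stimulated Nox4 KO libraries, at 2.18 to 3.63 RPKM, were above all 3 stimulated WT libraries, at 1.35 to 1.48 RPKM, and the Nox4 KO mean was 2.16 times that of WT. The log2 difference was 1.13 (SE 0.21, unadjusted p = 0.00116, adjusted p = 0.838). Of 10439 genes tested, edgeR's quasi-likelihood test called 0%, with 337 (3.23%) at an unadjusted p-value under 0.05, DESeq2 called 6 and edgeR's exact test 4. Lipg was called by both DESeq2 (adjusted p = 0.00649) and the exact test (adjusted p = 0.0254). Lpl and Cebpb were lower in all stimulated Nox4 KO libraries, by log2 differences of -0.89 (SE 0.33, adjusted p = 0.838) and -0.77 (SE 0.20, adjusted p = 0.838). Zfp423 did not overlap either, at 0.245 to 0.259 RPKM against 0.299 to 0.385 RPKM (exact permutation test, two-sided, p = 0.10, the smallest possible). Among all genes tested, 4.16% were higher and 5.92% lower in every stimulated Nox4 KO library. Pparg, Cebpa and Angptl4 overlapped, with log2 differences of -0.66 (SE 0.31), -0.62 (SE 0.33) and -0.12 (SE 0.52), and Fabp4 and Cd36 were under the filter. Pparg and Cebpa passed the limit of 1 RPKM through the WT group alone, with Nox4 KO means of 0.637 and 0.813 RPKM. The comparisons of genotype and of TGF-β2 share libraries, so an Lpl level that is low in Nox4 KO control enters both.

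The genes around the set were described with 6 lists, to be read beside the 7.72% of all genes called in WT and the 6.80% called in Nox4 KO. Among 15 genes that mature, anchor or inhibit lipoprotein lipase, 8 were tested. In WT, the proprotein convertase genes Pcsk5 rose by 1.25 on the log2 scale (SE 0.18, adjusted p = 0.00462) and Pcsk6 fell by 1.07 (SE 0.17, adjusted p = 0.0067). In Nox4 KO the values were 1.31 (adjusted p = 0.0514) and -0.89 (adjusted p = 0.199), and none of the 8 was called. With the replicate block Pcsk5 was called at 1.21 (SE 0.18, adjusted p = 0.00371). Pcsk6 was then at -0.95 (SE 0.07, adjusted p = 0.000565), under the 2-fold limit. Gpihbp1, which carries lipoprotein lipase on capillary endothelium, had no read in any library, which allows up to 3 counts in each. The median of the 8 was -0.08 in WT and 0.02 in Nox4 KO.

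Of 12 other lipases and lipolysis genes, 7 were tested. Mgll, which encodes monoacylglycerol lipase, rose in WT by 1.41 (SE 0.14, adjusted p = 0.00144) and in Nox4 KO by 1.03 (SE 0.20, adjusted p = 0.015). Lipe, the hormone-sensitive lipase, was at 0.917 to 1.47 RPKM in WT control and at 0.558 to 0.631 RPKM in WT with TGF-β2, a log2 fold change of -0.87 (SE 0.20, adjusted p = 0.0249) under the 2-fold limit. In Nox4 KO, Lipe fell by 1.15 (SE 0.20, adjusted p = 0.0109) and is named after its value was seen. Lipe passed the limit of 1 RPKM through the control group alone in both genotypes. Its means in control and after TGF-β2 were 1.13 and 0.601 RPKM in WT and 1.14 and 0.487 RPKM in Nox4 KO. The list medians were -0.19 and -0.16.

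All 13 genes of fatty acid uptake and binding were tested, and 1 was called in each genotype, a share near that of all genes. This was Slc27a3, an acyl-CoA synthetase of the fatty acid transporter family, at -1.97 in WT (SE 0.36, adjusted p = 0.0109) and -2.21 in Nox4 KO (SE 0.26, adjusted p = 0.00426), with list medians of -0.24 and -0.27. Of 17 genes known as targets of PPAR factors, 10 were tested in WT and 9 in Nox4 KO. The lipid droplet coat gene Plin2 rose by 2.02 in WT (SE 0.17, adjusted p = 0.000826) and by 1.91 in Nox4 KO (SE 0.19, adjusted p = 0.00312), while the list medians were -0.25 and -0.14. Plin2 thus rose in WT while Fabp4, also a PPAR target, fell.

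Among 19 further transcription factors of adipogenesis, 16 were tested in WT, with 1 called higher and 3 lower. Egr2, an early factor, rose by 2.13 (SE 0.13, adjusted p = 0.000383), and Klf4, another early factor, fell by 1.25 (SE 0.19, adjusted p = 0.00569). Tcf7l2 fell by 1.04 (SE 0.13, adjusted p = 0.00337) and Zfp467 by 1.07 (SE 0.22, adjusted p = 0.0163). In Nox4 KO, 15 were tested and the same 3 were called lower, Klf4 at -1.35, Tcf7l2 at -1.08 and Zfp467 at -1.30, while Egr2 was at 2.35 (SE 0.71, adjusted p = 0.0514) and was called with the replicate block at 2.42 (SE 0.18, adjusted p = 0.000548).

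All 19 genes known to restrain adipogenesis were tested, and they moved both ways. Wnt10b, a Wnt ligand that blocks fat cell formation, rose by 4.44 in WT (SE 0.19, adjusted p = 0.000236) and by 3.68 in Nox4 KO (SE 0.41, adjusted p = 0.00382). It passed the limit of 1 RPKM through the stimulated group alone, with control means of 0.108 and 0.115 RPKM. Foxc2 rose by 1.07 in WT (SE 0.17, adjusted p = 0.00619) and was at 0.97 in Nox4 KO (adjusted p = 0.116). With the replicate block Foxc2 was at 0.95 in Nox4 KO (SE 0.13, adjusted p = 0.00303), under the 2-fold limit. Zfp521, a zinc finger repressor of adipogenesis, fell by 1.18 in WT (SE 0.22, adjusted p = 0.011) and by 1.03 in Nox4 KO (SE 0.29, adjusted p = 0.0421). Smad3, which transmits the TGF-β signal, fell by 1.07 in WT (SE 0.10, adjusted p = 0.00115) and was at -0.73 in Nox4 KO (adjusted p = 0.00961), under the 2-fold limit. Wnt5a at 1.06 and Klf2 at -1.16 were called in Nox4 KO (adjusted p = 0.0189 and 0.0111) and are named after their values were seen. The medians were -0.37 and -0.08. No gene of the 6 lists was called between genotypes by edgeR's quasi-likelihood test.

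**Figure D5:**
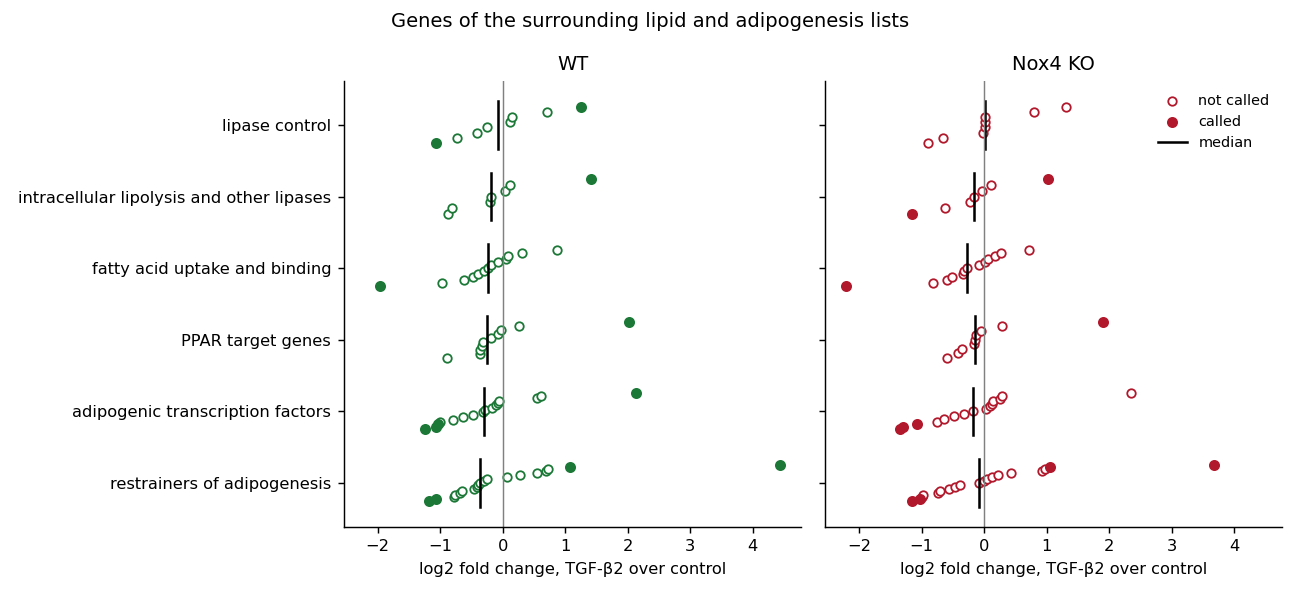
Log2 fold change of TGF-β2 over control (x axis) of the tested genes of 6 lists (y axis), in WT (left) and Nox4 KO (right), with filled points for called genes and a bar at each list's median. The medians lie between -0.37 and 0.02, and single genes such as Wnt10b, at 4.44 and 3.68, stand far from them.

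The genes whose log2 CPM followed Lpl most closely over the 12 libraries, out of 10889, were Plekha2 (Pearson r = 0.966), the adipogenic factor gene Ebf1 (r = 0.960), Serpine2 and Adamts2 (r = 0.953 each) and Hoxc12 (r = 0.950). For Lipg they were Lars (r = 0.926), 4930503L19Rik, Slc38a1, Sync and Ltbp1 (r = 0.894). For Pparg they were Vgf (r = 0.965), Rtn4rl1, Dtwd1, Bid and Cpxm2 (r = 0.922). These correlations describe libraries that share the 4 groups, so genes that respond to TGF-β2 correlate with each other.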

How the data were processed

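RNA was measured by single-end sequencing of 12 libraries. The authors mapped reads to GRCm38, per the labels with STAR 2.4, discarded reads with several locations and used featureCounts 1.4.6 to count reads over the joined exons of each gene's protein-coding isoforms (base calls with CASAVA 1.8.2), and the deposited values are raw counts per gene. Symbols, positions and exon lengths came from the GENCODE annotation of GRCm38, matched for all 21556 genes, and RPKM and CPM were computed from the counts. Totals of 35118344 to 43796260 per library set the precision, and limits for a count of 0 cover counting error only.

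Each comparison of 2 groups was fitted on its own 6 libraries with R 4.3.3 and edgeR 4.0.16 (limma 3.58.1), using TMM normalization and the quasi-likelihood test. Genes with a mean of at least 1 RPKM in at least 1 group were tested, and p-values were adjusted by Benjamini-Hochberg over all of them. A call needed an adjusted p under 0.05 and a 2-fold change, and the interaction an adjusted p under 0.05. Standard errors came from the F statistic. Genes under the filter were compared on log2(CPM + 0.5) with exact permutation tests, two-sided. The procedure was tested on simulated counts.

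The genes, lists and tests were chosen with earlier results of these data known. The rule for named genes took every gene of the set, Nox4, up to 4 genes of each list called in each direction in WT after TGF-β2 by adjusted p, any called between genotypes, and the 5 genes most like Lpl, Lipg and Pparg. In Nox4 KO, the deviations of same-numbered libraries from the means of their groups were correlated (0.763, 0.688 and 0.741), so the numbers pair them. This rests on the data, since neither the labels nor the methods state it. Replicates differed by more than counting noise. Alternatives were DESeq2 1.42.0, edgeR's exact test, other normalizations and filters, all 12 libraries in a fit, no fold limit, a replicate block and leaving out each library. The block for the list and marker genes was chosen after seeing the data.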

Additional observations from a re-analysis of the deposited data

How the results depend on the processing

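In WT, 4 genes of the set were called after TGF-β2 under every setting that kept all libraries, and 2 to 4 with each library left out. The count of 2 came without stimulated replicate 1, when Lpl and Angptl4 remained. In Nox4 KO the count of 3 became 6 with DESeq2, 6 with edgeR's exact test, 5 with all 12 libraries in the fit, 6 with the replicate block, 4 with upper-quartile normalization (Pparg added) and 4 without the filter (Angptl4 added), and 2 to 5 with each library left out. The replicate block changed no other call of the set. In WT the same-numbered correlations, 0.062, 0.415 and 0.525, were not all over 0.1, and the block moved the calls over all genes from 829 to 925. Between genotypes the count of 0 became 1 with DESeq2 and 1 with the exact test in control cells (Lpl), and likewise 1 and 1 after TGF-β2 (Lipg). Differences near 0 changed sign. With each library left out, Lipg in WT was between -0.02 and 0.54. Between genotypes in control cells, Angptl4 was between -0.23 and 0.43 (and -0.03 with the replicate block) and Cebpb between -0.08 and 0.30, and after TGF-β2 Angptl4 was between -0.41 and 0.31. The interaction was between -0.07 and 0.53 for Lipg, -0.56 and 0.06 for Pparg, -0.15 and 0.57 for Cebpa, -0.65 and 0.46 for Fabp4, -0.57 and 0.22 for Angptl4 and -0.13 and 0.54 for Lpl. The causes were not tested. Depth limits Fabp4 (6 to 175 reads), Cd36 (8 to 196 reads) and Zfp423 (41 to 89 reads).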
